A study of Mus musculus with 4 samples.

Results

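Keratin-associated proteins are small structural proteins of the hair shaft. They fill the space between the keratin filaments of the hair cortex and cuticle, and their cysteines are joined into the disulphide network that hardens the fibre. Their genes lie in tight clusters, have little or no intron sequence, and are switched on late, as cells leave the hair matrix and differentiate into shaft. By composition they are divided into high-sulphur, ultrahigh-sulphur and glycine-tyrosine-rich classes.

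They were examined here in the back skin of 10-day-old mice, an age at which the first hair coat is still growing. Skin of 2 conditional knockout animals (cKO; Adam17flox/flox with Krt14-Cre, a Cre driven by the keratin 14 promoter) was compared with that of 2 Krt14-Cre negative littermates, called wild-type by the submitters, all on a mixed 129Sv and C57BL/6 background. ADAM17 is a membrane protease that releases ligands of the EGF receptor and other surface proteins, and the keratin 14 promoter is active in basal keratinocytes of epidermis and hair follicle. Each of 2 litters gave 1 control and 1 cKO animal, and each animal's whole-skin RNA was read on 1 single-colour array. There were 2 animals a group, and this small number limits how precise each value can be. Whole skin holds epidermis, follicles, dermis, fat, muscle and vessels, so fewer cells of a type and less RNA per cell cannot be told apart.

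All genes on the array whose name is Krtap followed by a number, or whose description names a keratin-associated protein, were taken: 51 probes for 47 of the 28034 genes. Of these, 44 were well above background on all 4 arrays, so none of them was kept through 1 group alone. The other 3, Krtap13, Krtap20-2 and 4930553J12Rik, were well above background on no array and were not tested. The class was taken from the subfamily number, the first number of the gene's name: 11 high-sulphur genes, 17 ultrahigh-sulphur genes and 15 glycine-tyrosine genes. The 4 members with no number stayed unclassed. On the array 8 members carry older names, among them Krtap19-1 to Krtap19-4, which are listed there as Krtap16 genes. Probe levels are given as log2 signal relative to the array's 75th percentile. Every difference is cKO minus control on that scale, so a difference of -1 is a signal halved.

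Promoter sequences are shown for 11 of these genes to let a start-site layout found in part of the family be seen beside the expression values. All 11 hold TATAAA or TATATAAG starting 40 to 20 bases before the RefSeq start. They are examples of that layout, not a sample of the family. Windows without it are not shown, such as those of Krtap21-1 (TATAAA at 61 bases) and Krtap5-4 (neither form on the gene's strand). Each is the 120 bases before the RefSeq start of the gene (GRCm38.p6), read 5′ to 3′ on the gene's own strand. The capitals mark every TATAAA, the core letters of a TATA box, and every TATATAAG. The first 4 belong to the ultrahigh-sulphur subfamily 4, which held the lowest differences of the numbered members, although Krtap4-6 (-0.26) is not among these. The remaining gene of the subfamily, Krtap4-16 (-0.55), is not shown, and its TATAAA starts 55 bases before the start.
Krtap4-2 (chr11:99635085-99635204, minus strand): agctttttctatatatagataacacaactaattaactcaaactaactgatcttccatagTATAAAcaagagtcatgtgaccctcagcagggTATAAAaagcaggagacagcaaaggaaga
Krtap4-7 (chr11:99644090-99644209, minus strand): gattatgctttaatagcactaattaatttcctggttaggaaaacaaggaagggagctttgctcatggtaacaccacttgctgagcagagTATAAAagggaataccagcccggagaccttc
Krtap4-13 (chr11:99809897-99810016, minus strand): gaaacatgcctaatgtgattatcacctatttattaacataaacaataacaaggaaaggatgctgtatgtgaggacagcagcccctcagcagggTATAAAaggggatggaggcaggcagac
Krtap4-6 (chr11:99665961-99666080, minus strand): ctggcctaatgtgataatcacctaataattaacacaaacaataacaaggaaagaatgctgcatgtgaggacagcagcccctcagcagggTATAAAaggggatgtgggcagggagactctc
The next are a cortex gene and a cuticle gene of the high-sulphur class, and a subfamily 5 gene whose cKO signal was higher in both litters.
Krtap2-4 (chr11:99614847-99614966, minus strand): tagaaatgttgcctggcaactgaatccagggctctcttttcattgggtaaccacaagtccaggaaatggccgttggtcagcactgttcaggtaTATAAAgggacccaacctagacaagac
Krtap26-1 (chr16:88647797-88647916, minus strand): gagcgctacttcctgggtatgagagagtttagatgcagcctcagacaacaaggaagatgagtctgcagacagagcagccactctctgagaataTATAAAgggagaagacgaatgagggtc
Krtap5-2 (chr7:142176006-142176125, minus strand): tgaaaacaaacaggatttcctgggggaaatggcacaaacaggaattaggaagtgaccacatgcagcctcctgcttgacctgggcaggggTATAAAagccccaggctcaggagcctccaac
The last 4 are glycine-tyrosine genes with small differences, of which Krtap19-3 carries the TATATAAG form.
Krtap16-3 (chr16:88962874-88962993, minus strand): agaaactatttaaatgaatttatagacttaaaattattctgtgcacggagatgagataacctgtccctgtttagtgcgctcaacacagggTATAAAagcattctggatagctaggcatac
Krtap6-3 (chr16:89083904-89084023, plus strand): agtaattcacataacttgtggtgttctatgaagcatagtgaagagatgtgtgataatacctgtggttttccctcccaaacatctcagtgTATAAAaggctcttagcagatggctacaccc
Krtap8-1 (chr16:89487953-89488072, minus strand): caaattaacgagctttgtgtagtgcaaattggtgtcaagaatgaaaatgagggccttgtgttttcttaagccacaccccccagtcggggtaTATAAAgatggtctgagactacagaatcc
Krtap19-3 (chr16:88878039-88878158, minus strand): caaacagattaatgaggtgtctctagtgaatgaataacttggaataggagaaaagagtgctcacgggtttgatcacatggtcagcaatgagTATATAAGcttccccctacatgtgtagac

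RefSeq windows were found for 40 of the 47 members. In the 250 bases before the start, TATAAA was present on either strand in 30 member windows (75%), against 12.4% of 32851 windows of the same length. Starting 40 to 20 bases before the start on the gene's strand, where a TATA box usually lies, it was present in 23 (57.5%), against 1.99% of all windows. TATATAAG was present in 7 (17.5%) against 0.935%, and 4 of these 7 were among the 5 subfamily 19 windows. Within subfamily 19 it started 40 to 20 bases before the start in Krtap19-3 only (29 bases). In Krtap19-1, Krtap19-2 and Krtap19-4 it started farther away, at 68, 73 and 55 bases. One form or the other was present in 37 member windows, against 13.1% of all windows. Neighbouring members are copies of one another in places, so the windows are not independent: those of Krtap31-1 and Krtap31-2 match at 116 of 120 bases. CTTTGA or CTTTGT, the core letters of LEF/TCF sites, were present in 20 windows (50%) against 27.6%, and CAATAAA, a core of posterior HOX sites, was present in 0 against 4.204%. All motifs were searched on both strands except where the gene's strand is named, and a match is a description of the letters only.

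The arrays were alike in depth: 53.7% to 56.6% of 43379 gene spots were well above background and 0 were saturated. Adam17 itself read 0.44 and 0.37 in the controls of litters 1 and 2 and -0.14 and -0.12 in the cKO animals. The groups did not overlap (difference -0.54 ± 0.09 SE; limma adjusted p = 0.114). The deleted part of the gene is not stated in the labels, so it is not known whether the probe lies inside it.

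No keratin-associated protein gene passed the test over all 15552 genes, at an adjusted p of 0.05 or less in limma. Among all genes 0.341% passed, 42 of them lower (0.27%) and 11 higher (0.0707%) in cKO. The signal of most members was nevertheless lower in cKO skin: 38 of 44 were lower in both litters, as were 32.1% of all genes. The other way, 2 of the 44 were higher in both litters, as were 40.4% of all genes. The cKO and control signals did not overlap for 33 members, all with cKO lower, against 21.4% of all genes. In the other direction the count was 0, against 28% of all genes. At an unadjusted p under 0.05, which 16.2% of all genes met, 20 members were lower and 0 higher, against 8.11% and 8.04% of all genes. The median difference over the 44 was -0.26, which is 83.4% of the control signal, and was -0.23 in litter 1 and -0.24 in litter 2. The median over all genes was 0.03. Member differences ran from -1.49 to 0.32 around a median standard error of 0.11, and 10 of the 44 lay at or below the 5th percentile of all genes (-0.48). With litter as a block in limma, 0 members and 0 (0%) of all genes passed. At an unadjusted p under 0.05 in that fit, 22 members were lower, against 11.4% of all genes, and 1 was higher. The genes below that limit numbered 3706 in both directions.

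**Figure D1:**
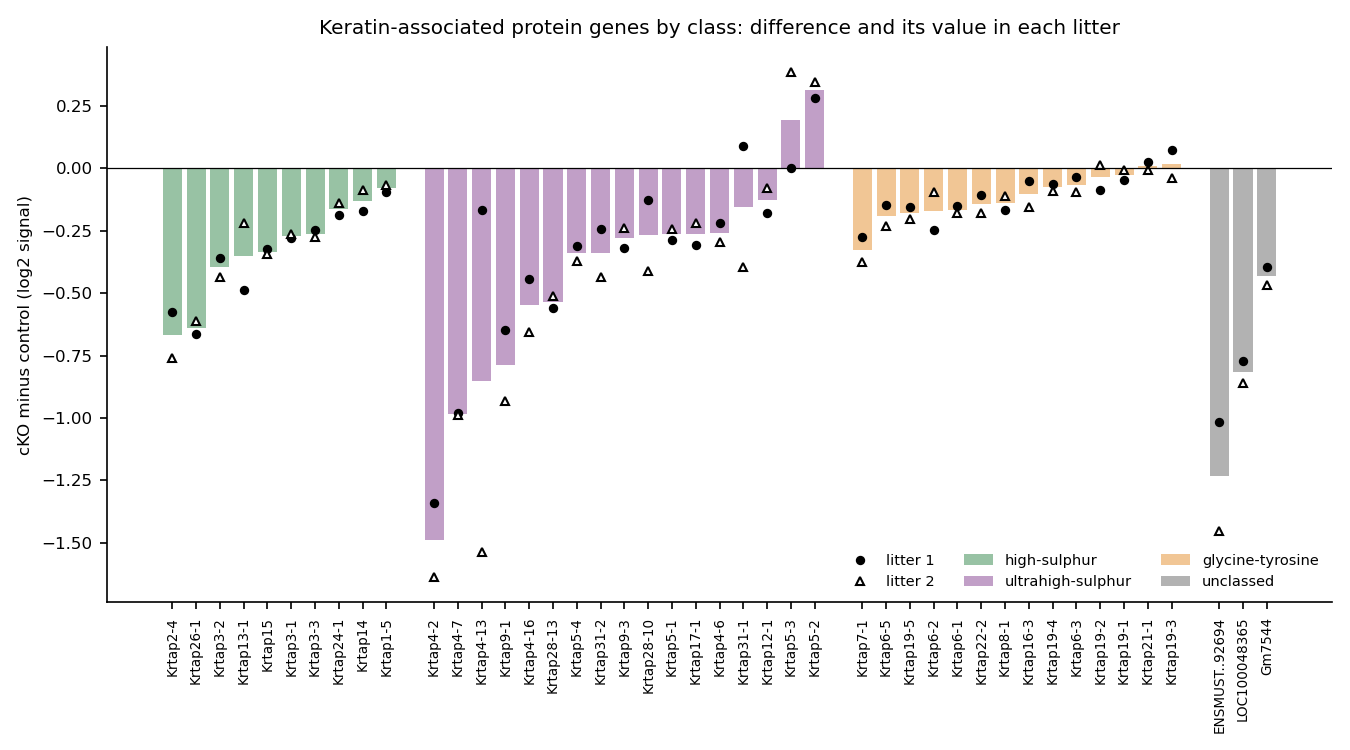
Difference in log2 signal, cKO minus control, for the 44 measured keratin-associated protein genes, grouped by class and ordered by size. Bars are the difference of the group means, circles the value in litter 1 and triangles the value in litter 2. Bars reach lowest among ultrahigh-sulphur genes (-1.49), while every glycine-tyrosine bar lies between -0.33 and 0.02.

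The ultrahigh-sulphur class held both the lowest and the highest members. Of its 17 genes, 14 had a lower cKO signal in both litters and 2 a higher one, 13 had groups that did not overlap with cKO lower, and 11 had an unadjusted p under 0.05. The shares of all genes were, in the same order, 32.1%, 40.4%, 21.4% and, for lower genes in limma, 8.11%. The class median was -0.28. Proteins of this class are among the most cysteine-rich known and are laid down late in shaft differentiation. The place of subfamilies 28 and 31 in the class, given by number, is less sure. Without them, a choice made after seeing the data, the median was -0.28 over 13 genes.

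Subfamily 4, known from the hair cortex, had a median of -0.85 over its 5 genes, and in all 5 the cKO signals lay below the control signals. The size of this median differed between litters, at -0.44 in litter 1 and -0.99 in litter 2. Krtap4-2 (probe at chr11:99495515-99495574, mm9) read 6.09 and 5.98 in the controls of litters 1 and 2 and 4.75 and 4.34 in the cKO animals. Both cKO values lay more than 1 log2 unit below both controls. The control mean was 6.04 ± 0.08 (SD, n = 2) and the cKO mean 4.55 ± 0.29 (SD, n = 2). They differed by -1.49 ± 0.16 (SE; limma adjusted p = 0.0635), which is 35.6% of the control signal. Krtap4-7 (chr11:99504540-99504599) read 6.48 and 6.37 in the controls and 5.50 and 5.39 in the cKO animals. The litters gave nearly the same difference, -0.98 and -0.99. Its mean difference of -0.98 ± 0.10 (SE) had the smallest adjusted p of any member in limma, 0.0545, still above the threshold.

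Krtap4-13 (chr11:99664935-99664994) read 3.18 and 4.05 in the controls and 3.01 and 2.51 in the cKO animals. The groups did not overlap, but the litters differed widely: -0.17 in litter 1 and -1.54 in litter 2. Its difference of -0.85 ± 0.35 (SE; limma adjusted p = 0.344) was -0.42 without control replicate 2 and -1.29 without control replicate 1. Being the middle value of the subfamily, the -0.85 of this gene was also the subfamily median. The remaining genes of the subfamily, Krtap4-16 and Krtap4-6, stood at -0.55 ± 0.17 and -0.26 ± 0.09 (SE). Krtap4-6 lies between Krtap4-7 and Krtap4-13 on the chromosome. In the printed sequences it shares an unbroken run of 42 bases around TATAAA with Krtap4-13, while its mean difference was the smaller. That order held in litter 2 only, with -0.30 for Krtap4-6 and -1.54 for Krtap4-13, against -0.22 and -0.17 in litter 1.

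Subfamily 9, also ultrahigh-sulphur, was measured by 2 numbered genes. Krtap9-1 (chr11:99735237-99735296) read 5.83 and 6.10 in the controls and 5.18 and 5.17 in the cKO animals. All cKO signal lay below control, with a difference of -0.79 ± 0.12 (SE; limma adjusted p = 0.111), 57.9% of the control signal. Krtap9-3 stood at -0.28 ± 0.09 (SE), with groups that did not overlap.

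Subfamily 5, known from the hair cuticle, differed among its members. Its 4 genes on chromosome 7 had a median of -0.04, with -0.14 in litter 1 and 0.05 in litter 2. The sign of this median turned without control replicate 2 (0.03), without cKO replicate 1 (0.13) and with quantile normalization (0.0039), and it was -0.17 without control replicate 1 and -0.20 without cKO replicate 2. Krtap5-4 (chr7:149489728-149489787) read 8.58 and 8.67 in the controls and 8.27 and 8.30 in the cKO animals, and Krtap5-1 read 8.47 and 8.54 against 8.18 and 8.30. In both genes the groups did not overlap, with differences of -0.34 ± 0.09 and -0.26 ± 0.09 (SE). Their probes are identical at 49 of 60 bases, so the pair may in part read the same transcripts. No other pair of member probes shares as many as 45 of 60 bases in a straight alignment.

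Krtap5-2 and Krtap5-3 were the 2 members with a higher cKO signal in both litters. Krtap5-2 read 2.18 and 2.87 in the controls and 2.46 and 3.22 in the cKO animals. The groups overlapped, because both litter 2 animals read higher than both litter 1 animals. Its difference was 0.32 ± 0.36 (SE; limma adjusted p = 0.713). Krtap5-3 read 0.74 and 0.92 in the controls and 0.74 and 1.302 in the cKO animals, with a difference of 0.19 ± 0.21 (SE), of which litter 1 gave 0.00025. Without cKO replicate 2 both genes were below 0, at -0.07 and -0.09, as was Krtap5-2 without control replicate 1 (-0.03). Under normexp they stood at 0.03 and 0.06. Both probes read low, near the foot of the family's range of signals.

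The other ultrahigh-sulphur genes lay between -0.54 and -0.13. Krtap28-13, on chromosome 1, stood at -0.54 ± 0.17 (SE), Krtap31-2 at -0.34 ± 0.12 and Krtap17-1, known from the hair cuticle, at -0.26 ± 0.08. In these 3 the cKO signals lay below the controls. Krtap31-1 was higher in cKO in litter 1 (0.09) and lower in litter 2 (-0.40). The neighbouring Krtap31-2, with a nearly identical promoter window, was lower in both.

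**Figure D2:**
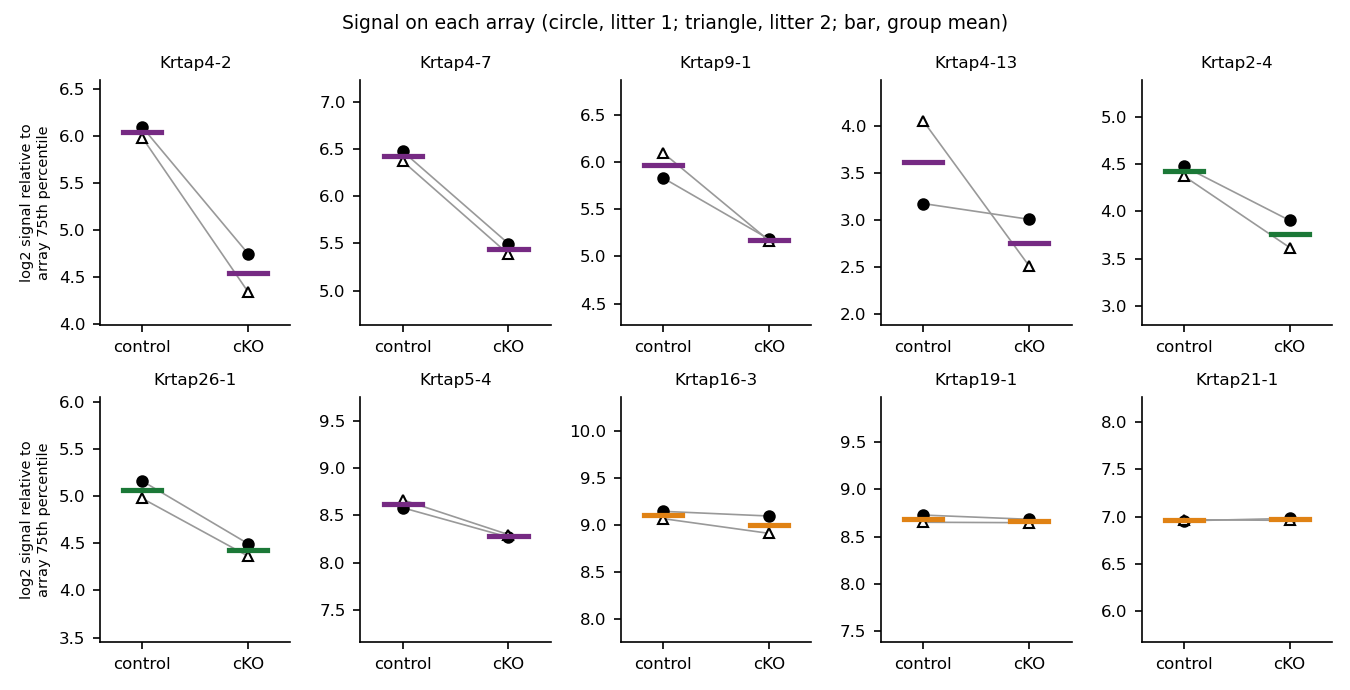
Log2 signal on each of the 4 arrays, relative to the array's 75th percentile, for 10 keratin-associated protein genes. Circles are litter 1, triangles litter 2, grey lines join littermates and coloured bars are group means; every panel spans the same height. Krtap4-2 has the largest mean difference (-1.49), the lines of Krtap4-13 differ between litters (-0.17 and -1.54), and those of Krtap19-1 (-0.03) and Krtap21-1 (0.01) are nearly level.

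The high-sulphur class was the most uniform in direction. All 10 measured genes were lower in cKO in both litters, and in all 10 the groups did not overlap. Of all genes, 32.1% were lower in both litters, 21.4% were lower without overlap and 8.11% were lower at an unadjusted p under 0.05 in limma. The class median was -0.30, and 6 of its genes had an unadjusted p under 0.05. These proteins, with less cysteine than the ultrahigh-sulphur class, include cortex proteins of subfamilies 1 to 3 and several known from the cuticle.

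Krtap2-4, a cortex protein (chr11:99475530-99475589), read 4.48 and 4.38 in the controls and 3.90 and 3.62 in the cKO animals. Its difference was -0.67 ± 0.13 (SE; limma adjusted p = 0.149), or 63.0% of the control signal. Krtap26-1, known from the hair cuticle (chr16:88647206-88647265), read 5.16 and 4.98 in the controls and 4.50 and 4.36 in the cKO animals. Although it lies on another chromosome, its difference was of like size, -0.64 ± 0.11 (SE; limma adjusted p = 0.127). The 3 genes of subfamily 3, cortex proteins, stood close together: -0.40 ± 0.12 for Krtap3-2, -0.27 ± 0.09 for Krtap3-1 and -0.26 ± 0.10 for Krtap3-3 (SE). Krtap3-1 was read by 3 probes, which gave -0.27, -0.32 and -0.36.

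On chromosome 16, Krtap13-1 read 6.09 and 6.08 in the controls and 5.60 and 5.87 in the cKO animals, a difference of -0.35 ± 0.12 (SE). Krtap15 stood at -0.33 ± 0.11, Krtap24-1, known from the cuticle, at -0.16 ± 0.10 and Krtap14 at -0.13 ± 0.10 (SE). Krtap1-5, a cortex protein, had the smallest difference of the class. It read 6.33 and 6.31 in the controls and 6.24 and 6.25 in the cKO animals, or -0.08 ± 0.08 (SE; limma adjusted p = 0.677). Its SD was 0.015 in control and 0.0070 in cKO skin (n = 2 each), so even this small difference left the groups without overlap.

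The glycine-tyrosine genes differed least. Of 14 measured, 11 had a lower cKO signal in both litters and 0 a higher one, 7 had groups that did not overlap, and 1 (Krtap7-1) had an unadjusted p under 0.05. Of all genes, 32.1% were lower in both litters, 21.4% were lower without overlap and 8.11% were lower at that limit in limma. The class median was -0.12, which is 92.0% of the control signal, and it was -0.06 without cKO replicate 2. These proteins hold little cysteine and are known from the cortex.

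Krtap7-1 read 2.16 and 2.04 in the controls and 1.88 and 1.66 in the cKO animals, a difference of -0.33 ± 0.12 (SE; limma adjusted p = 0.300). Its signal was the lowest of the class. Krtap6-5, Krtap19-5 and Krtap6-2 followed at -0.19 ± 0.09, -0.18 ± 0.08 and -0.17 ± 0.11 (SE), each with groups that did not overlap.

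The 2 brightest probes of the class had overlapping groups. Krtap16-3 (chr16:88962906-88962965) read 9.15 and 9.07 in the controls and 9.10 and 8.91 in the cKO animals, a difference of -0.10 ± 0.11 (SE). Krtap19-1 read 8.73 and 8.65 in the controls and 8.68 and 8.65 in the cKO animals, a difference of -0.03 ± 0.09 (SE), and its second probe gave -0.03. Over the 5 genes of subfamily 19 the median was -0.04. Krtap19-3 and Krtap21-1 were nearest 0, at 0.02 ± 0.09 and 0.01 ± 0.08 (SE), and both became negative under another background correction (normexp: -0.27 and -0.31). That correction lowered bright genes in general: the median of 293 other genes with a signal of 6 or more went from 0.04 to -0.25. Krtap21-1 read 6.95 and 6.97 in the controls and 6.98 and 6.96 in the cKO animals, with litters of opposite sign. A further family gene known to the array by accession only, Krtap19-9b, fell outside the rule by which genes were chosen and stood at 0.02 ± 0.11 (SE).

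Unclassed members were lower than most. The transcript ENSMUST00000092694, described as a subfamily 9 protein and lying between Krtap4-16 and Krtap9-1 (chr11:99726559-99726618), read 4.57 and 4.85 in the controls and 3.55 and 3.40 in the cKO animals. The difference was -1.23 ± 0.14 (SE; limma adjusted p = 0.0635), 42.5% of the control signal. LOC100048365, described as similar to Krtap6-1 (chr16:89041253-89041312), read 5.77 and 5.54 in the controls and 4.999 and 4.68 in the cKO animals, or -0.82 ± 0.16 (SE; limma adjusted p = 0.142). It lies among glycine-tyrosine genes, all of whose numbered members had smaller differences. Gm7544, described as similar to Krtap5-2, stood at -0.43 ± 0.19 (SE). With these 3 placed in the class their descriptions name, a choice made after seeing the data, the medians were -0.34 for ultrahigh-sulphur and -0.14 for glycine-tyrosine genes.

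By position, the median was lower in the chromosome 11 cluster than in that of chromosome 16. Of the 16 genes on chromosome 11, 15 were lower in both litters and 12 had an unadjusted p under 0.05, with a median of -0.37. The 20 measured genes of chromosome 16 had a median of -0.15 (-0.09 without control replicate 1), with 17 lower in both litters and 5 at an unadjusted p under 0.05. Of all genes, 32.1% were lower in both litters and 8.11% were lower at that limit in limma. High-sulphur genes occur in both clusters, and their medians there were -0.27 on chromosome 11 (5 genes) and -0.33 on chromosome 16 (5 genes). The ultrahigh-sulphur class had a median of -0.44 over its 10 genes on chromosome 11 and of -0.04 over its 4 on chromosome 7. The glycine-tyrosine genes lie on chromosome 16 alone, with a median of -0.12 over 14 genes, beside the high-sulphur genes of that cluster. They cannot be compared with genes of their own class in another cluster. Chromosome 1 held 3 measured genes, with a median of -0.43 that was -0.23 without control replicate 2 and -0.27 without cKO replicate 1, and chromosome 10 a single one, Krtap12-1 (-0.13).

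**Figure D3:**
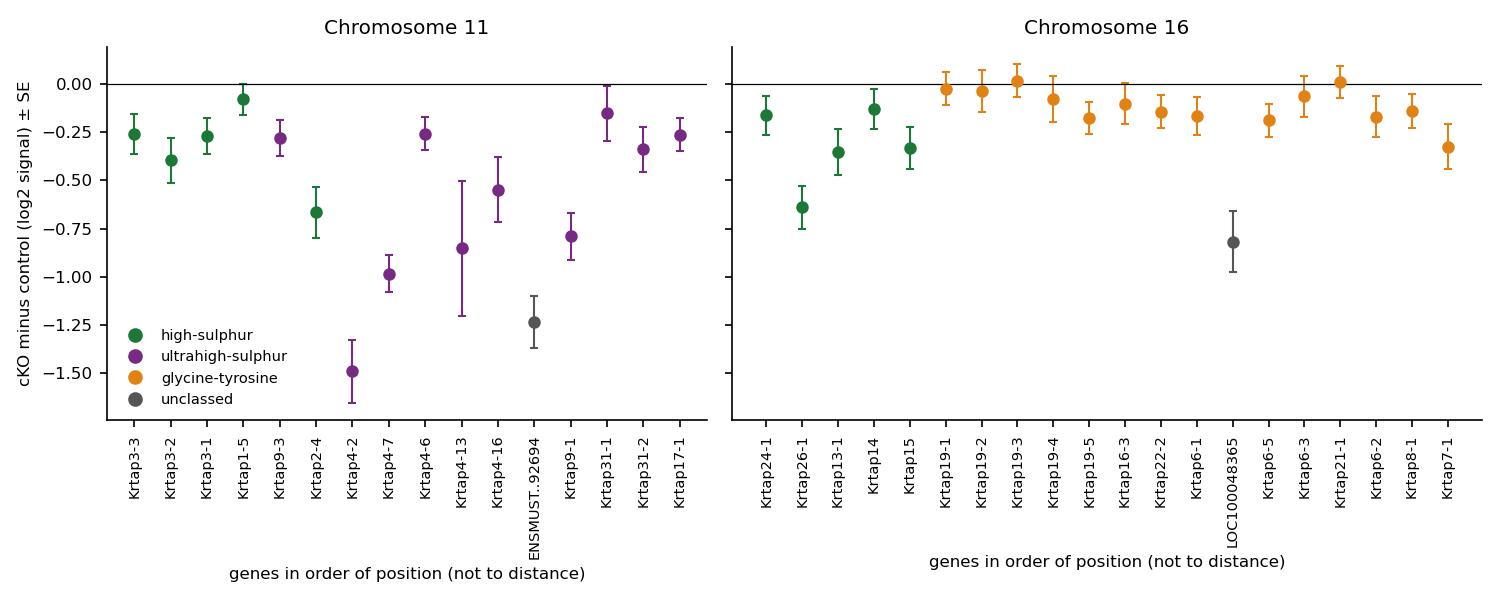
Difference in log2 signal, cKO minus control, with its standard error, for the genes of the chromosome 11 and chromosome 16 clusters in order of position; colours are classes. The stretch from Krtap2-4 to Krtap9-1 on chromosome 11 holds most of the low values, Krtap4-6 (-0.26) lying among them, and the subfamily 19 genes of chromosome 16 lie near 0.

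Some members differed between litters in both genotypes. Litter 2 read higher than litter 1 in control and in cKO for all 3 genes of chromosome 1 and all 4 of chromosome 7, with steps of 0.70 and 0.76 for Krtap5-2. On chromosome 16 the order was mostly the other way, 14 of 20 genes reading lower in litter 2 in both genotypes. Such steps were common on these arrays: of all 15552 genes, 5755 read higher and 4716 lower in litter 2 in both genotypes. Steps between litters enter the standard errors of the comparison between genotypes.

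The classes differ in probe signal (median 5.58 for high-sulphur, 5.29 for ultrahigh-sulphur and 7.06 for glycine-tyrosine genes). They were therefore also compared within the same range of signal, a choice made after seeing the data. The brightest member spot reached 64.5% to 69.9% of the scanner's saturation value. Among genes with a mean signal of 6 to 9.5, the median was -0.27 over 6 ultrahigh-sulphur, -0.13 over 3 high-sulphur and -0.08 over 11 glycine-tyrosine genes, and 0.04 over 293 other genes. Between 8 and 9.5 it was -0.26 over 3 ultrahigh-sulphur and -0.08 over 4 glycine-tyrosine genes. The order of those 2 classes was thus the same within the band as over all signals, while the high-sulphur median was nearer 0 there than over all 10 genes.

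**Figure D4:**
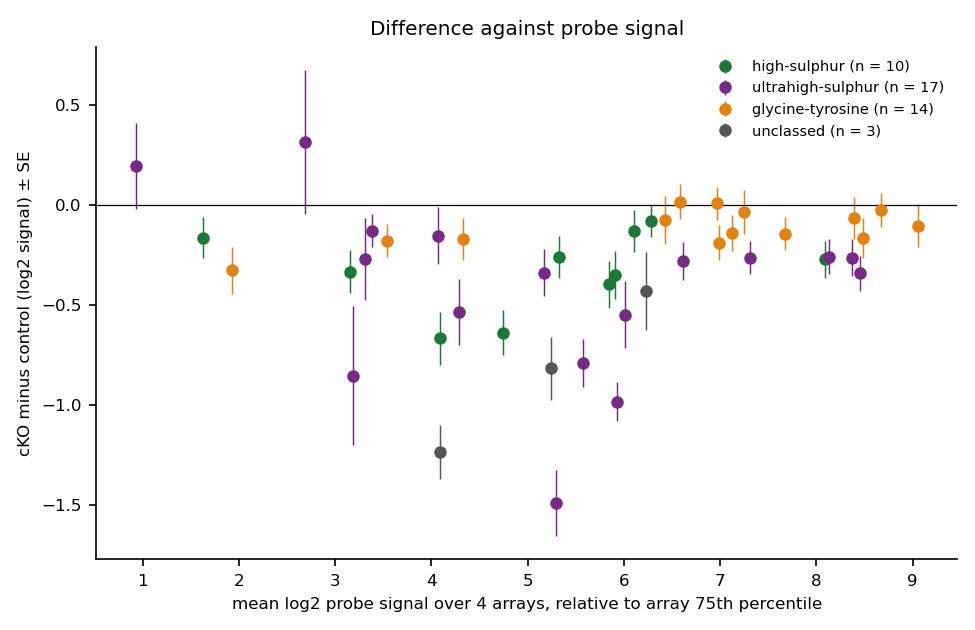
Difference in log2 signal, cKO minus control, with its standard error, against the mean log2 probe signal over the 4 arrays, for the 44 measured genes coloured by class. At signals above 8 the ultrahigh-sulphur genes lie between -0.34 and -0.26 and the glycine-tyrosine genes between -0.17 and -0.03; the 3 lowest differences (-1.49, -1.23 and -0.98) occur at signals from 4 to 6.

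Other genes of the hair shaft and its neighbours were set beside the family by lists. The hair shaft keratins, the filament proteins that keratin-associated proteins embed, had a median of -0.02 over 10 measured of 15 listed, with 4 genes lower and 4 higher in both litters. That median was -0.14 in litter 1 and 0.08 in litter 2, -0.15 without cKO replicate 2, 0.049 without cKO replicate 1 and 0.0017 with quantile normalization, so it has no settled direction. Krt36 stood at 0.998 ± 0.11 (SE; limma adjusted p = 0.0635), its controls at 3.23 and 3.33 and its cKO signals at 4.18 and 4.37, while Krt34 stood at -0.29 ± 0.09 and Krt87 at -0.24 ± 0.09. The inner root sheath list, for the layers that mould the growing shaft, had a median of -0.18 over 6 of 9 genes, 5 lower in both litters. Krt26 stood at -0.93 ± 0.09 (SE; limma adjusted p = 0.0534), Krt27 at -0.63 ± 0.08 and Krt28 at -0.31 ± 0.10.

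Hair fibre proteins and enzymes other than keratins had a median of -0.44 over 12 genes, with 11 lower in both litters and 10 at an unadjusted p under 0.05. Of all genes, 32.1% were lower and 40.4% higher in both litters, and 8.11% were lower at that limit in limma. Crym, a crystallin-like protein of the cortex, read 7.36 in both controls and 6.41 and 6.53 in the cKO animals (-0.89 ± 0.09 SE; limma adjusted p = 0.0574). Lrrc15 stood at -0.83 ± 0.11 and Liph, a lipase needed for hair growth, at -0.74 ± 0.09 (SE). Selenbp1 was the exception at 0.50 ± 0.37 (SE), and stood at -0.03 without cKO replicate 2. The regulators of the hair matrix had a median of -0.06 over 16 genes, 7 lower and 5 higher in both litters. Lef1 and Trps1 both stood at 0.46 (SE 0.12 and 0.11) and Vdr at -0.40 ± 0.14. Hoxc13 and Foxn1, known to drive hair keratin genes, stood at -0.04 ± 0.25 and -0.24 ± 0.10 (SE). None of the genes of these 4 lists passed the test over all genes.

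**Figure D5:**
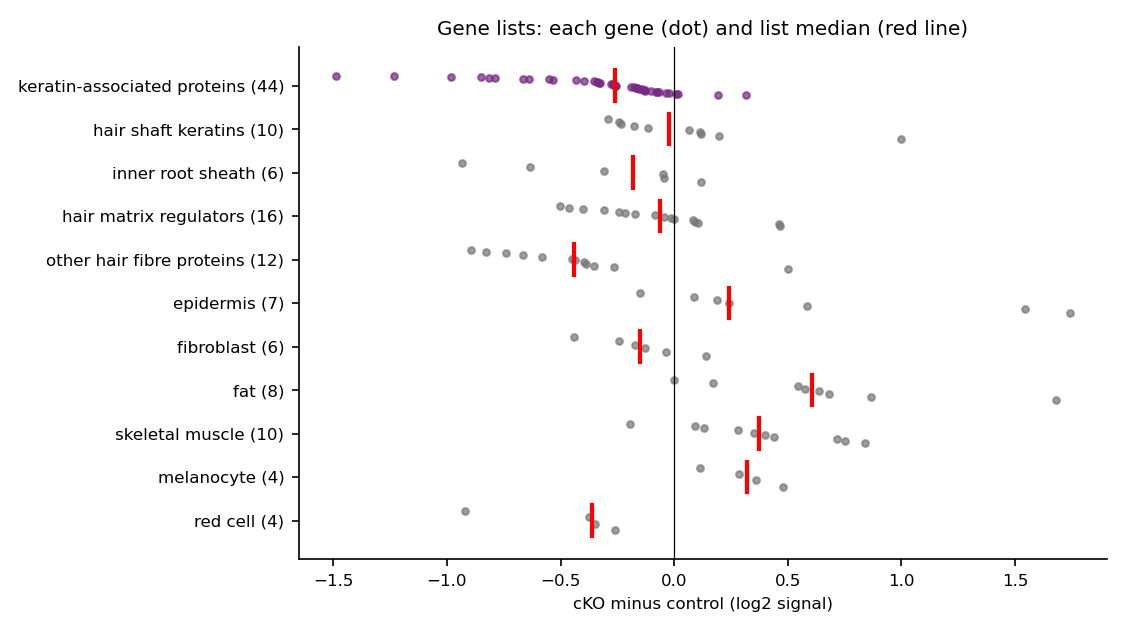
Difference in log2 signal, cKO minus control, for each measured gene (dots) of the family and of 10 lists, with the list median as a red line and the number of genes measured in brackets. The family median (-0.26) lies below that of the hair shaft keratins (-0.02, and of either sign by litter: -0.14 and 0.08) and above that of the other hair fibre proteins (-0.44).

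Markers of other tissues in the biopsies were read as well, and none of these genes passed the test over all genes. Their levels are given as log2 of the summed signal of the measured markers. Fat markers summed to 8.51 and 8.07 in the controls and 8.75 and 8.61 in the cKO animals, with a median difference of 0.61 over 8 genes and 6 higher in both litters. Skeletal muscle markers summed to 9.23 and 8.80 against 9.34 and 9.35, with a median of 0.37 over 10 genes (0.14 in litter 1). Melanocyte markers, 4 of 5 measured, had a median of 0.32, with sums of 7.13 and 7.38 against 7.54 and 7.62. Epidermal keratins and cornified layer genes summed to 10.03 and 9.99 against 10.23 and 10.35 (median 0.24 over 7). Fibroblast markers summed to 9.58 and 8.99 against 9.41 and 8.66 (median -0.15 over 6, with 0.14 without control replicate 1 and 0.17 without cKO replicate 2), and red cell markers to 7.63 and 7.21 against 7.43 and 6.68 (median -0.36 over 4, with -0.14 without control replicate 1, -0.61 without control replicate 2, -0.72 without cKO replicate 1 and -0.0042 without cKO replicate 2). The fibroblast and red cell sums overlapped between genotypes. Those of fat, skeletal muscle, melanocytes and epidermis did not, each with cKO higher. Tyr was not measured. For comparison the 44 keratin-associated protein genes summed to 12.38 and 12.37 in the controls and 12.18 and 12.13 in the cKO animals, which did not overlap. The part of tissue make-up in the family's lower signal was not tested.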

How the data were processed

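Single-colour Agilent arrays (design 014868, probe positions in mm9 per the file headers) were hybridised with labelled RNA made from 500 ng per animal, per the labels. Feature Extraction is given as version 10.5 in the submitters' processing notes and as 10.7.3.1 in the file headers. The deposited scanner files give intensity values per spot, background-subtracted by the scanner software per the file headers. The authors' deposited series table holds log2 values, which matched the scanner values less each array's 75th percentile and each probe's median (correlation over 0.99999; column medians -0.08 and 0.06 in controls 1 and 2, -0.06 and 0.08 in cKO 1 and 2). It served as an alternative.

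From the scanner files, the processed signal was put on the log2 scale and the array's 75th percentile subtracted. Control spots and outlier spots (51 to 66 an array) were left out, and a probe was kept if both arrays of a group showed it well above background, as 22190 of 41174 were. The brightest probe stood for each gene, giving 15552 genes. Genes were tested with limma 3.58.1 in R 4.3.3 (no covariate, two-sided, Benjamini-Hochberg over all genes, threshold 0.05). The fit was tested on simulated data. The simulated arrays had independent noise and no litter effect, so that test does not cover variation shared by littermates. Summaries used Python 3.11.15 and pandas 2.3.3.

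Per the labels the replicate number is the litter, so the numbers pair the animals. Deviations from the group means correlated at 0.35 across genes between genotypes. Litter as a block was an alternative. All 4 arrays lay on 1 slide and 1 scan. The members, lists and tests were chosen with earlier results of these data known. Named genes were, per class, the 4 members with the largest difference among those of the same sign in both litters and the 2 brightest, and the 2 members nearest 0. Of the hair lists up to 3 genes of smallest p were named. Other names were chosen after their values were seen. Names came from accessions for 43 member probes, from symbols for 4 and from the files for 4. Promoters came from RefSeq, GRCm38.p6, and no coordinate was moved between builds. Other settings tried were 2 filters, normexp, quantile normalization, the mean over probes and leaving out each array. Protein composition was not analysed here.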

Additional observations from a re-analysis of the deposited data

How the results depend on the processing

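No keratin-associated protein gene passed the limma test under any setting run, and 36 to 40 of 44 were lower in both litters where this was counted. The number of all genes called, 53, was 0 with litter as a replicate block, 0 with no filter on dim probes, 28 with the stricter filter, 0 under normexp and 0 to 38 when 1 array was left out. Members lower at an unadjusted p under 0.05 in limma numbered 20, against 11 under normexp and 10 with no filter. All genes below that limit, in either direction, numbered 2512 of 15552 in the main fit. They numbered 425 of 15552 under normexp and 2079 of 28023 with no filter.

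Under normexp the median was -0.52 for the family, -0.56 for high-sulphur, -0.58 for ultrahigh-sulphur and -0.38 for glycine-tyrosine genes. By chromosome it was -0.69 on chromosome 1, -0.28 on 7, -0.41 on 10, -0.68 on 11 and -0.40 on 16. For the lists it was -0.33 for hair shaft keratins, -0.49 for inner root sheath, -0.23 for matrix regulators, -0.63 for other fibre proteins, 0.35 for fat, 0.10 for muscle, 0.048 for melanocytes, -0.46 for fibroblasts and -0.64 for red cells. The epidermal list changed sign, to -0.00089, as did Krtap19-3 (-0.27) and Krtap21-1 (-0.31). Normexp moved bright genes in general: 293 other genes with a signal of 6 or more went from a median of 0.04 to -0.25, with -0.01 in litter 1 and -0.51 in litter 2. The median standard error of all genes was 0.26 under it, against 0.11. The cause was not tested.

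The family median was -0.24 with quantile normalization and, as settings added after seeing the data, -0.19 without subfamily 4; that of high-sulphur genes with signal 6 to 9 was -0.13. The inner root sheath median was -0.34 with the mean over probes. Leaving out 1 array gave ranges of -0.24 to -0.22 for the family, -0.38 to -0.28 for ultrahigh-sulphur and -0.17 to -0.056 for glycine-tyrosine genes, -0.40 to -0.33 for chromosome 11 and -0.18 to -0.088 for chromosome 16, -0.63 to -0.23 for chromosome 1 and -0.20 to 0.13 for chromosome 7. For the lists they were -0.15 to 0.049 for hair shaft keratins, -0.22 to -0.17 for inner root sheath, -0.11 to -0.0084 for matrix regulators, -0.56 to -0.38 for other fibre proteins, 0.20 to 0.35 for epidermis, 0.44 to 0.74 for fat, 0.19 to 0.55 for muscle, 0.17 to 0.47 for melanocytes, -0.49 to 0.17 for fibroblasts and -0.72 to -0.0042 for red cells. The block changed no member's call. Signal over background does not limit the 44 measured members, but no value is given for the other 3.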
